A study of Argopecten irradians concentricus with 9 samples.

Results

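Bay scallop adductor muscle expressed 3 basic leucine zipper (bZIP) transcription factor genes at their lowest level in the low temperature group. The genes are evm.TU.Contig225.61, whose best protein match is CCAAT/enhancer-binding protein gamma (C/EBP gamma), and evm.TU.Contig79.116 and evm.TU.Contig782.15, which carry a bZIP domain and no protein name. They are 3 of 28864 gene models in the table and 3 of its 35 bZIP family gene models. These genes were chosen by their FPKM in the same 9 libraries, which differed between the temperature groups. FPKM are fragments per kilobase of gene model, here scaled between libraries by a size factor and not by read depth. The differences of the 3 genes are therefore given here as a description, with no test. The study, on the scallop Argopecten irradians concentricus, sequenced total RNA of adductor muscle, which pulls the valves together, from scallops 1 year old, with 3 libraries each at room, high and low water temperature. The sources used here state no genotype, no degrees and no length of exposure. The labels speak of RNA isolated from each tank, and leave unsaid whether replicates are separate animals, so each p-value below reflects only how these libraries scatter, which may be technical.

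A bZIP protein binds DNA through a basic region and pairs with another bZIP protein through its leucine zipper, so that the partners present decide which sites are bound. In mammals C/EBP gamma has a DNA-binding region and zipper but little activating region of its own, and it acts in pairs with other family members such as C/EBP beta and ATF4. In mammals ATF4, its C/EBP partners, ATF6 and XBP1 are known for turning on genes of amino acid supply and of protein folding in the endoplasmic reticulum when these are under strain. The genes with a bZIP domain and no name cannot be given a place in that scheme from the annotation used here.

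The gene models differ in size. The C/EBP gamma match lies on Contig225 from 1170825 to 1171187 on the minus strand, and its model of 363 bases fills that span without an intron. The gene evm.TU.Contig782.15 lies on Contig782 from 235578 to 236938 on the minus strand, with a model of 471 bases in a span of 1361. The gene evm.TU.Contig79.116 lies on Contig79 from 2790562 to 2794602 on the plus strand, with a model of 2424 bases in a span of 4041. Contigs and positions are those of the deposited table, whose genome build the sources do not name.

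Assigned reads ranged from 11716140 to 16229040 per library. FPKM summed over all gene models varied more, from 492312 in low temperature replicate 1 to 1157870 in high temperature replicate 3. A pair of libraries stood apart: on the leading principal component high temperature replicate 3 was at 52.0 and the others at -28.5 to 13.8, and on the next low temperature replicate 3 was at 42.9 and the others at -21.1 to 12.8. The 16 adductor muscle markers summed to 63379 to 172799 FPKM, with 2 of them, a troponin C and a myosin regulatory light chain model, at 0. Of 81 cilia marker genes, 11 were at 0 throughout, 7 of them axonemal dynein heavy chains, and the sum was 46.5 to 55.1 FPKM at low, 56.3 to 61.8 at room and 43.7 to 55.8 at high temperature. Of 8 haemocyte markers, 1 mannose receptor model was at 0, and the sum was 110 to 131 FPKM at low, 86.1 to 181 at room and 136 to 240 at high temperature. Of 21 mantle or shell markers, 8 were at 0, among them the nacrein-like model, and the sum was 3.64 to 6.33 FPKM at low, 7.45 to 18.2 at room and 7.72 to 10.8 at high temperature. Of 120 nerve markers, 56 were at 0, nearly all neuronal acetylcholine receptor subunits, and the sum was 82.5 to 108 FPKM at low, 54.8 to 108 at room and 66.6 to 81.0 at high temperature. Digestive gland (29 models, 8 at 0) and gonad (15 models, 5 at 0) sums overlapped between groups. The part of these tissues in the results below was not tested. In whole muscle, fewer cells of a type and less RNA per cell cannot be told apart.

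The C/EBP gamma match was low in the cold group and level between the others. It was at 4.14, 5.71 and 4.56 FPKM in low temperature replicates 1, 2 and 3. It was at 30.8, 27.7 and 24.8 FPKM in the room temperature replicates and at 26.2, 21.8 and 35.0 FPKM in the high temperature replicates. The low group lay wholly below both others, and the room and high groups overlapped. The means were 4.80 ± 0.812 FPKM at low, 27.7 ± 2.997 at room and 27.7 ± 6.68 for high temperature (SD, n = 3 each). The room mean was 5.78 times the low mean, and the high mean was 0.998 times the room mean. The label of a graded response therefore does not describe this gene, whose room and high levels did not differ beyond their spread. From 18 to 28 reads lay behind each low value and 114 to 189 behind each of the others. In low temperature replicate 3, 18 reads carry a 95% exact Poisson interval of 2.71 to 7.21 FPKM, which covers counting error only.

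The gene evm.TU.Contig79.116 followed the order low, room, high. It was at 1.44, 1.16 and 1.78 FPKM in low temperature replicates 1, 2 and 3, at 8.30, 3.81 and 3.05 in the room replicates and at 14.0, 21.0 and 22.8 in the high replicates. No groups overlapped, and room temperature replicate 1 stood well above the other room libraries. The means were 1.46 ± 0.313 FPKM at low, 5.05 ± 2.84 at room and 19.3 ± 4.63 for high temperature (SD, n = 3 each). The high mean was 13.2 times the low mean and 3.81 times the room mean, and the room mean was 3.46 times the low mean. The room group had a coefficient of variation of 56.1%, against 21.4% at low and 24.0% at high temperature. Without room temperature replicate 1, the log2 difference of low from room on the log2(FPKM + 1) scale went from -1.21 to -0.85. The long model gave 38 to 734 reads per library.

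The gene evm.TU.Contig782.15 was also lowest at low and highest at high temperature. It was at 1.94, 5.97 and 1.56 FPKM in low temperature replicates 1, 2 and 3, at 24.3, 23.9 and 16.1 in the room replicates and at 34.1, 44.9 and 26.5 in the high replicates. The low group lay far below the others, with replicate 2 highest in it, while the highest room library came close to the lowest high library. The means were 3.16 ± 2.44 FPKM at low, 21.5 ± 4.63 at room and 35.2 ± 9.24 for high temperature (SD, n = 3 each). The room mean was 6.80 times the low mean, and the high mean was 1.64 times the room mean. The lowest high value was 1.09 times the highest room value. When libraries were rescaled to equal FPKM sums the room and high groups overlapped, and the high mean was 1.88 times the room mean. Only 8 reads lay behind low temperature replicate 3 and 17 behind replicate 1, so the level at low temperature is uncertain, with a 95% exact Poisson interval of 0.675 to 3.08 FPKM in replicate 3.

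**Figure D1:**
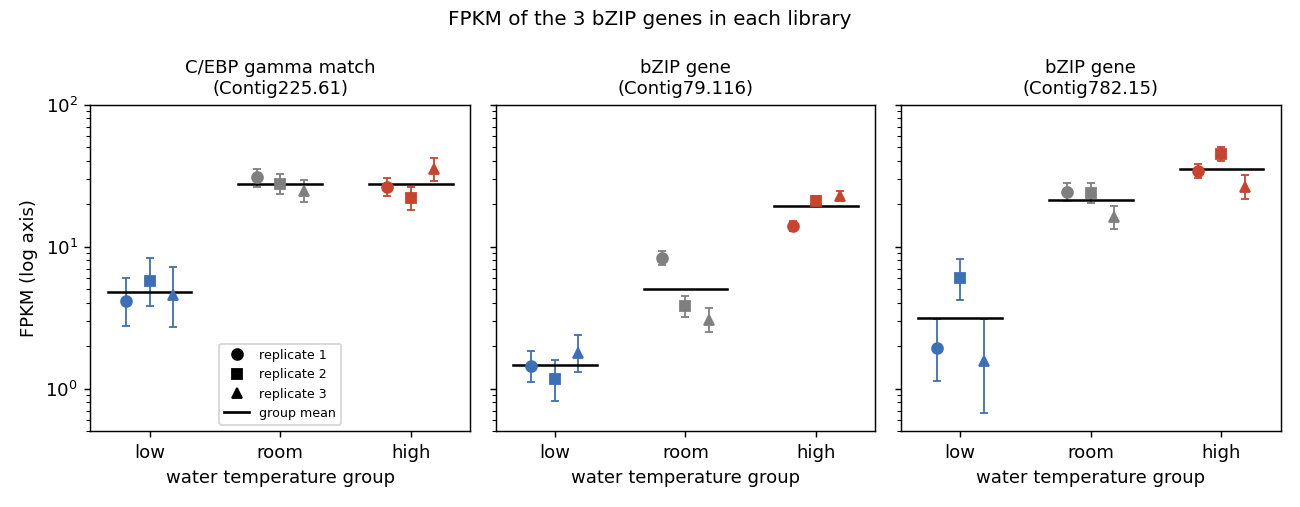
FPKM of the 3 bZIP genes in each library on a log axis, by water temperature group; symbols mark replicates, bars the 95% exact Poisson interval of the read count (counting error only) and horizontal lines the group means. The low libraries lie below the room and high libraries in every panel, and room and high overlap for the C/EBP gamma match, where both means are 27.7 FPKM.

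Between the low and room groups, 3 of the 3 genes did not overlap, which in the same direction (low below room) held for 8.74% of the 8624 gene models with a mean of at least 1 FPKM, and in the other for 6.53%. Between high and room temperature it was 2 of 3 with high above room, beside 7.54% of all and 8.97% the other way, and between high and low temperature 3 of 3 with high above low, beside 8.75% and 8.45% the other way. The full order low, room, high without overlap held for 2 of the 3, evm.TU.Contig79.116 and evm.TU.Contig782.15, and for 19 of 8624 gene models (0.22%), while the reverse order held for 26 (0.301%). These contrasts chose the genes, so nothing is read from the counts. Of the 16 other bZIP genes with a mean of at least 1 FPKM, none followed either order. Among those below that level, the match to ATF-2 (evm.TU.Contig254.45), a factor activated by stress kinases in mammals, followed the reverse order without overlap, at 1.19 ± 0.129 FPKM at low, 0.842 ± 0.289 at room and 0.478 ± 0.0267 for high temperature (SD, n = 3 each). Its mean lay under the limit of 1 FPKM, so the main fit did not test it, though 212, 157 and 83 reads lay behind the 3 groups in that order. It was named after its values were seen. Leaving out high temperature replicate 3 and low temperature replicate 3, a choice made after seeing the data, left the log2 differences of high from low at 2.09 for the C/EBP gamma match, 2.99 for evm.TU.Contig79.116 and 3.15 for evm.TU.Contig782.15, against 2.29, 3.02 and 3.24 with all libraries.

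By abundance the 3 genes changed place within their family, which restates the FPKM differences that chose them and is no further test. The C/EBP gamma match ranked 13 to 15 of the 35 bZIP gene models at low temperature and 5 to 7 at room and high temperature. The gene evm.TU.Contig782.15 ranked 12 to 18 at low, 7 to 9 at room and 5 to 6 at high temperature, and evm.TU.Contig79.116 ranked 17 to 19, 14 to 16 and 8 to 12. Together they made up 0.404% to 0.585% of the summed bZIP FPKM at low, 2.40% to 2.66% at room and 4.26% to 5.21% at high temperature. The family total itself ranged from 1803 to 2195 FPKM at low, 1649 to 2637 at room and 1562 to 1978 at high temperature, and these ranges overlapped.

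Whether the 3 genes also moved together inside a temperature group was tested, since deviations from the group mean do not use the differences that chose the genes. Over the 9 libraries, deviations of log2(FPKM + 1) correlated at r = 0.32 (rho = 0.31) between the C/EBP gamma match and evm.TU.Contig79.116, at r = 0.17 (rho = 0.16) between the C/EBP gamma match and evm.TU.Contig782.15, and at r = -0.01 (rho = 0.05) between the other pair. None of the 3 pairs passed an exact two-sided permutation test within groups: p was 0.412, 0.685 and 0.986 for r, with Benjamini-Hochberg adjusted p = 0.986 for each, and 0.477, 0.685 and 0.921 for rho, with adjusted p = 0.921 for each. Here rho is Pearson's r of the ranked deviations, with group means taken off the ranks. The 216 arrangements allow a smallest p of 0.00463. Without the 2 libraries farthest from the median, r was 0.39, 0.05 and -0.44. The size of r depended on the scaling. With libraries rescaled to equal FPKM sums it was 0.63, 0.74 and 0.47 for the 3 pairs (adjusted exact permutation p = 0.190 for each), which turned the direction of the last pair, and with upper quartile scaling it was 0.07, 0.17 and -0.05 (adjusted p = 0.898 for each). None of the 3 pairs passed under any of these scalings.

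All 3 genes lie within 100 kb of another bZIP family gene model, as do 11 of the 35 models in the family. The nearest bZIP neighbour of the C/EBP gamma match is evm.TU.Contig225.62, the match to C/EBP beta, an activator of acute-phase and differentiation genes in mammals. It begins 2431 bases away on the plus strand, so that the pair are read away from each other. Its levels were 75.4, 110 and 98.0 FPKM at low, 307, 97.7 and 74.8 at room and 166, 150 and 130 at high temperature in replicates 1, 2 and 3. The low and room groups overlapped, and room temperature replicate 1 stood alone at 307. The C/EBP beta match did not pass in any contrast, with log2 differences of -0.49 for low minus room, 0.17 for high minus room and 0.66 for high minus low (SE 0.454, limma adjusted p = 0.850, 0.939 and 0.635). The C/EBP gamma match was at 0.0466 to 0.0549 times its neighbour's FPKM at low, 0.1004 to 0.331 at room and 0.145 to 0.268 at high temperature. The low ratios lay below all others, but the C/EBP gamma match was chosen by its group differences, so nothing is read from this. The gene on the other side, evm.TU.Contig225.60, matches 39S ribosomal protein L38 of the mitochondrial ribosome, 2616 bases away on the plus strand. It was at 6.63 ± 0.850 FPKM at low, 9.67 ± 1.11 at room and 4.39 ± 1.01 for high temperature (SD, n = 3 each), and did not pass (lowest limma adjusted p = 0.315, high minus room). A match to MafA, a bZIP factor of the large Maf group, lies 149238 bases away and did not pass either, at log2 differences of -0.33, 0.10 and 0.43.

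The gene evm.TU.Contig79.116 sits in a row of 5 bZIP models on the plus strand of Contig79. The most abundant of them, evm.TU.Contig79.114, ends 30666 bases upstream. It was at 26.8, 46.8 and 38.0 FPKM at low, 141, 87.6 and 108 at room and 59.2, 64.1 and 113 at high temperature. Its low and room groups did not overlap, while room and high did. The log2 difference of low from room was -1.57 (SE 0.335), the lowest p among the other bZIP genes, and it did not pass (limma adjusted p = 0.162, and 0.0621 to 0.452 over 21 alternative settings). Where evm.TU.Contig79.116 was highest at high temperature, this neighbour had its highest mean at room temperature, with log2 differences of high from room of 1.81 and -0.54 in that order. Whether the pair differ in this was not tested, since the first of them was chosen for its difference. The nearest gene model downstream, evm.TU.Contig79.120, has no annotation and lies 10655 bases away. It was at 56.7, 75.4 and 82.8 FPKM at low, 376, 281 and 117 at room and 316, 371 and 167 at high temperature, with the low group below both others. It did not pass for high minus low (log2 difference 1.91, SE 0.449, limma adjusted p = 0.146, passing in 1 of 21 alternative settings) or low minus room (-1.69, adjusted p = 0.275). An unannotated model 16392 bases upstream was below 1 FPKM on average. Of the other bZIP models in the row, evm.TU.Contig79.122 was at 2.94 ± 1.02, 4.07 ± 0.393 and 6.74 ± 4.95 FPKM at low, room and high temperature and did not pass, and evm.TU.Contig79.121 and evm.TU.Contig79.123 were under the limit of 1 FPKM.

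The gene evm.TU.Contig782.15 shares its strand with 3 further bZIP models, of which none reached a mean of 1 FPKM. The nearest, evm.TU.Contig782.14, lies 4614 bases downstream and had 1 read in all 9 libraries. The model evm.TU.Contig782.11 had 1 read as well. The model evm.TU.Contig782.12, with a Maf-type bZIP domain, had 0 reads over the low libraries, 2 over the room libraries and 20 over the high libraries, of which 10, 2 and 8 were in replicates 1, 2 and 3. A count of 0 allows up to 3 reads over the group. This model and evm.TU.Contig826.33, another bZIP domain gene at 1, 6 and 25 reads, were named after their values were seen. Both were too low to test. Other bZIP domain models below the limit of 1 FPKM had most reads at low temperature. These were evm.TU.Contig223.55 at 85, 19 and 40 reads and evm.TU.Contig6.262 at 65, 14 and 41 at low, room and high temperature, also named after their values were seen. On the other side, evm.TU.Contig782.16 matches Arpin, an inhibitor of actin branching by the Arp2/3 complex. It was at 5.55 ± 1.28, 5.95 ± 1.29 and 5.40 ± 1.497 FPKM at low, room and high temperature, with groups that overlapped and log2 differences of -0.09 and -0.13 from room (limma adjusted p = 0.955 and 0.919). Whether reads of neighbouring bZIP models can be told apart depends on their sequences and was not tested.

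**Figure D2:**
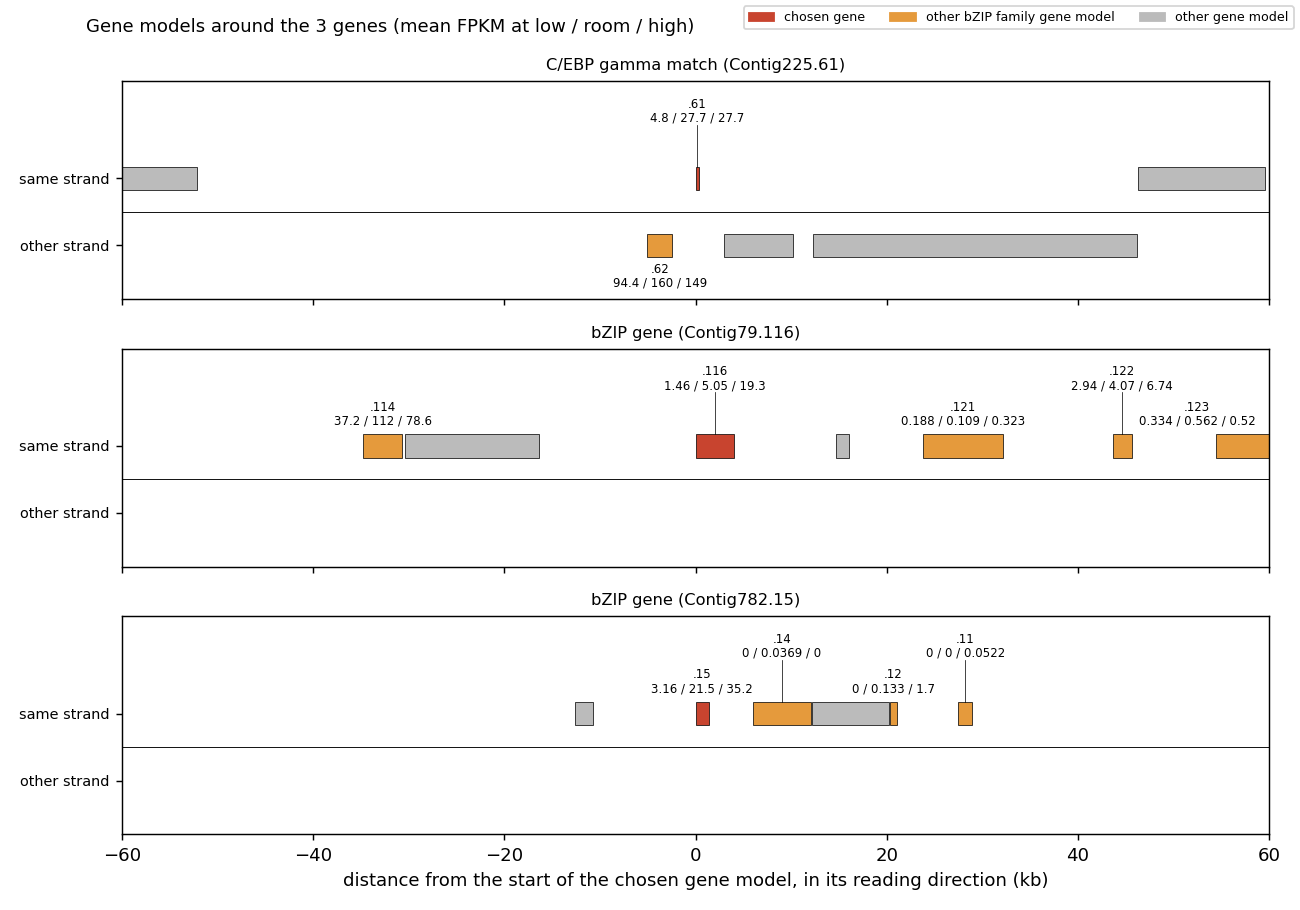
Gene models within 60 kb of the start of each of the 3 genes, as distance in kb in the gene's reading direction; red marks the gene, orange other bZIP family models and grey other models, and numbers give the mean FPKM of each bZIP model at low, room and high temperature. The C/EBP gamma match at 4.80, 27.7 and 27.7 FPKM lies beside the C/EBP beta match at 94.4, 160 and 149, and the other genes lie in rows of bZIP models on 1 strand.

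The rest of the family gives the frame for these levels. Of the 32 other bZIP models, 16 reached a mean of 1 FPKM and were tested. By limma, 0 of the 16 were called in any of the 3 contrasts, beside 0.151% of all tested gene models for low minus room, 0% for high minus room and 0.162% for high minus low (0.151% higher and 0.0116% lower). With unadjusted p below 0.05 there were 2 higher and 1 lower of 16 for low minus room, 1 higher and 0 lower for high minus room, and 2 higher and 3 lower for high minus low. Over all 8624 gene models these shares were 3.35% higher and 4.81% lower, 4.7% higher and 4.87% lower, and 6.42% higher and 5.45% lower in the same order. Voom on the recovered reads called 0 as well. The median log2 difference of the 16 was -0.13, -0.11 and 0.03 in these contrasts, beside -0.04, -0.03 and 0.01 over all 8624 gene models. Their differences ran from -1.57 to 0.91 (low minus room) and from -0.95 to 1.03 (high minus low).

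The most abundant bZIP gene was evm.TU.Contig350.35, the match to ATF-5, a factor of the amino acid and mitochondrial stress responses in mammals. It was at 1035, 1113 and 1286 FPKM at low, 1204, 1127 and 612 at room and 614, 765 and 450 at high temperature. The high group lay below the low group, with a log2 difference of -0.94 (SE 0.344) that did not pass (limma adjusted p = 0.310). Its lowest value was at high temperature, where the 3 genes described here had their highest or shared highest means. The match to X-box-binding protein 1 (XBP1), evm.TU.Contig363.5, a factor of the unfolded protein response, followed at 569 ± 186 FPKM at low, 745 ± 38.3 at room and 682 ± 335 for high temperature (SD, n = 3 each), with groups that overlapped (limma adjusted p = 0.828, 0.889 and 0.895).

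Less abundant genes stood apart in both directions, and none of them passed. The match to MafK, evm.TU.Contig350.69, a small Maf protein that partners other bZIP factors, was at 10.7, 9.39 and 13.0 FPKM at low, 11.1, 13.9 and 10.8 at room and 17.8, 20.6 and 22.7 at high temperature. The high group lay above both others, at log2 differences of 0.73 from room and 0.83 from low (SE 0.236, limma adjusted p = 0.371 and 0.205). The bZIP domain gene evm.TU.Contig437.48 was at 4.21, 3.39 and 2.94 FPKM at low, 1.37, 1.15 and 1.67 at room and 1.80, 1.71 and 1.39 at high temperature. There the low group lay above both others, with a log2 difference of 0.91 from room (SE 0.222, limma adjusted p = 0.225). A match to hepatic leukemia factor, evm.TU.Contig283.37, named after its values were seen, also had its low group above both others. It was at 5.30 ± 0.263, 2.40 ± 0.465 and 2.49 ± 1.38 FPKM at low, room and high temperature. Its log2 difference of low from room was 0.90 (SE 0.317, limma adjusted p = 0.468). Another tested match to hepatic leukemia factor, evm.TU.Contig313.6, was at 5.21 ± 0.977, 3.60 ± 1.59 and 3.10 ± 1.23 FPKM in that order. Its low and room groups overlapped, and its log2 difference of low from room was 0.49 (SE 0.335, limma adjusted p = 0.762). A further match, evm.TU.Contig106.144, was under the limit of 1 FPKM.

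**Figure D3:**
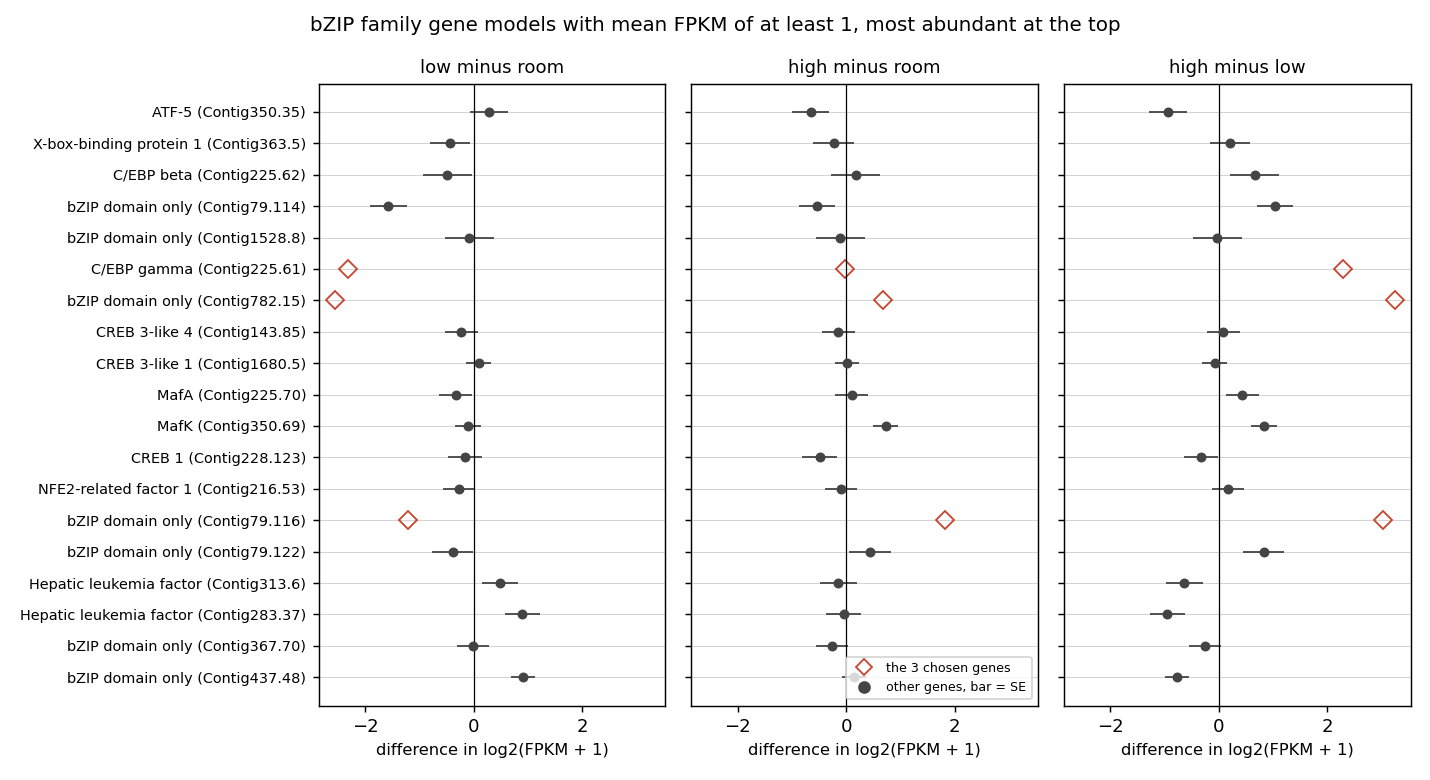
Difference in log2(FPKM + 1) between groups for the 19 bZIP family gene models with a mean of at least 1 FPKM, ordered by mean FPKM; open diamonds are the 3 genes described here and filled points the 16 others, with bars of 1 standard error. The others lie between -1.57 and 0.91 for low minus room. The 3 genes lie at -2.31, -1.21 and -2.56, of which -1.21 is within the range of the others. They were chosen by such differences, so this placing is a description and no test.

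Genes that in mammals act before or after these factors were counted next. These lists were chosen with earlier results of these data known, so their counts are a description. Of 16 regulators of translation and the unfolded protein response, such as eIF2-alpha kinases, eIF2B subunits and IRE1, 12 were tested and 0 were called in any contrast. The tested ones include the ATF-5 and XBP1 matches, which were also counted above among the other bZIP genes. Their median log2 difference was -0.20 (low minus room), -0.19 (high minus room) and 0.14 (high minus low), and with unadjusted p below 0.05 none were higher while 3, 1 and 1 of the 12 were lower, beside 4.81%, 4.87% and 5.45% lower over all gene models. The 1 that was lower for high minus low was the ATF-5 match. The lowest p in this list, with that of ATF-5, belonged to evm.TU.Contig1752.6, the match to eIF2-alpha kinase 1, a heme-regulated kinase that slows translation. It was at 0.609, 0.7499 and 0.672 FPKM at low, 3.87, 1.31 and 1.10 at room and 0.347, 0.676 and 0.805 at high temperature. All room libraries lay above the others, with 1 room library far above the rest, and the difference of high from room (-0.85, SE 0.323) did not pass (limma adjusted p = 0.444).

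Of 64 amino acid response gene models, named for the targets of ATF4 and its partners in mammals, 37 were tested. This list too was chosen with earlier results of these data known, so its counts are a description. For low minus room 1 was called lower and 0 higher, beside 0.151% of all gene models called lower. For high minus low 1 was called higher and 0 lower, beside 0.151% called higher. For high minus room 0 were called. With unadjusted p below 0.05, 10 of the 37 were lower and 0 higher (low minus room), 2 were lower and 3 higher (high minus room), and 0 were lower and 9 higher (high minus low). The shares over all gene models were 4.81% lower and 3.35% higher, 4.87% and 4.7%, and 5.45% and 6.42% in the same order. The median log2 difference was -0.27 (low minus room), -0.05 (high minus room) and 0.26 (high minus low), with 30 of 37 below 0 in the first and 28 of 37 above 0 in the last, beside medians of -0.04, -0.03 and 0.01 over all gene models. These contrasts share the low libraries. The gene that fell at low temperature was evm.TU.Contig121.73, which matches growth/differentiation factor 15, a hormone released under cell stress in mammals, with 1 read in each low library, at 0.0332 ± 0.00871 FPKM at low, 11.01 ± 6.97 at room and 2.25 ± 0.783 for high temperature (SD, n = 3 each). This gene passed the limit of 1 FPKM only through its room and high libraries. Its limma adjusted p = 0.00902 for low minus room became 0.0723 without low temperature replicate 1 and 0.0748 without replicate 3. With no filter on low values it was 0.0675. The call was lost in 5 of 20 settings (adjusted p = 0.00110 to 0.0996 over them). Sequestosome-1, evm.TU.Contig626.26, an autophagy receptor, was at 28.3, 32.3 and 36.9 FPKM at low, 76.8, 74.3 and 66.0 at room and 82.2, 118 and 97.9 at high temperature. It was higher at high than at low temperature (log2 difference 1.58, SE 0.249, limma adjusted p = 0.0404), and the call was lost in 14 of 21 settings, among them each of the 9 that left out 1 library (adjusted p = 0.0612 to 0.187).

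Of 26 chaperone and quality-control gene models of the endoplasmic reticulum, 24 were tested and 0 were called in any contrast. The median log2 difference was -0.26 (low minus room), 0.01 (high minus room) and 0.25 (high minus low). In that order, unadjusted p was below 0.05 for 5 of the 24 models that were lower, 1 that was higher and 6 that were higher, and for none in the other directions, beside 4.81% lower, 4.7% higher and 6.42% higher over all gene models. Of the tested matches to glucose-regulated protein GRP78, the main HSP70 chaperone of that compartment, the most abundant was evm.TU.Contig141.23. It was at 13.5, 12.4 and 17.6 FPKM at low, 31.0, 35.2 and 32.1 at room and 33.4, 90.2 and 52.9 at high temperature. Its low group lay below both others, and the difference of high from low (1.85, SE 0.338) did not pass (limma adjusted p = 0.0765, passing in 4 of 21 alternative settings). The other tested GRP78 matches had groups that overlapped, and neither passed. At low, room and high temperature evm.TU.Contig11594.1 was at 0.872 ± 0.636, 6.16 ± 8.74 and 11.8 ± 15.1 FPKM. In that order evm.TU.Contig141.24 was at 1.01 ± 0.586, 5.25 ± 6.29 and 10.6 ± 11.6 FPKM (SD, n = 3 each). Protein disulfide-isomerase A4, evm.TU.Contig1116.28, which forms disulfide bonds in new proteins, was at 1.71 ± 0.427, 2.29 ± 0.588 and 5.36 ± 1.78 FPKM at low, room and high temperature and did not pass either (high minus low 1.20, limma adjusted p = 0.142).

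The gene models most like each of the 3 were found by Pearson's r of log2(FPKM + 1) over the 9 libraries, among 8623 other gene models. The 9 libraries form 3 temperature groups, so r here mostly reads the group levels, and it is given as a description. The C/EBP gamma match and evm.TU.Contig782.15 had r = 0.93 with each other, and each ranked 13 in the other's list. The r was 0.83 between evm.TU.Contig782.15 and evm.TU.Contig79.116 and 0.77 between the C/EBP gamma match and evm.TU.Contig79.116.

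Most like the C/EBP gamma match was evm.TU.Contig1352.10, the match to ubiquitin-conjugating enzyme E2 H, at r = 0.99. It was at 8.54, 8.46 and 7.08 FPKM at low, 20.0, 20.4 and 17.8 at room and 19.2, 15.9 and 19.7 at high temperature, low in the cold group and level elsewhere. Next came a pair of transcription factors, Krueppel-like factor 5 (evm.TU.Contig329.80, r = 0.96) and the ETS factor Elk-3 (evm.TU.Contig479.58, r = 0.96). Krueppel-like factor 5 was at 176 ± 10.5 FPKM at low, 287 ± 43.5 at room and 271 ± 25.001 for high temperature, and Elk-3 at 8.39 ± 2.42, 20.7 ± 4.96 and 19.2 ± 2.33 FPKM in that order (SD, n = 3 each). A lipocalin-domain gene, evm.TU.Contig1023.9 (r = 0.95), went from 672 ± 178 FPKM at low to 2513 ± 451 at room and 3038 ± 1209 for high temperature. Alternative oxidase, evm.TU.Contig517.94 (r = 0.95), a mitochondrial enzyme that passes electrons straight to oxygen, was at 0.749 ± 0.1004, 5.22 ± 0.790 and 5.58 ± 1.68 FPKM.

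Most like evm.TU.Contig79.116 was an unannotated gene, evm.TU.Contig791.52 (r = 0.98), at 2.56 ± 0.209 FPKM at low, 3.31 ± 0.626 at room and 4.98 ± 0.158 for high temperature (SD, n = 3 each). The match to signal transducer and activator of transcription 5A, evm.TU.Contig244.82 (r = 0.96), a factor of cytokine signalling in mammals, was at 2.29, 2.16 and 2.49 FPKM at low, 3.45, 2.93 and 2.89 at room and 3.16, 4.12 and 4.17 at high temperature. Its room and high groups overlapped. The others were the unannotated evm.TU.Contig151939.1 (r = 0.95), the match to XRCC2 (evm.TU.Contig59.3, r = 0.95), a protein of recombination repair, and the match to ATP-binding cassette sub-family F member 1 (evm.TU.Contig1115.13, r = 0.94), a ribosome-associated protein. These likenesses are of shape. The high mean of the last was 34.3 ± 3.61 FPKM and its low mean 24.1 ± 2.001. That range was far narrower than that of the bZIP gene. The XRCC2 match was near the limit, at 0.473 ± 0.175, 0.825 ± 0.355 and 2.27 ± 0.757 FPKM at low, room and high temperature. Only its high mean was above 1 FPKM.

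Most like evm.TU.Contig782.15 was DnaJ homolog subfamily B member 4, evm.TU.Contig80.202 (r = 0.97), a co-chaperone of HSP70. It was at 9.11, 12.05 and 10.2 FPKM at low, 40.7, 30.5 and 32.9 at room and 55.3, 65.5 and 55.7 at high temperature, with 3 groups that did not overlap. Histone H1-delta, evm.TU.Contig728.4 (r = 0.96), a linker histone, was at 4.76 ± 1.79, 10.7 ± 3.17 and 13.8 ± 0.882 FPKM at low, room and high temperature (SD, n = 3 each). The HSP70 match evm.TU.Contig769.21 (r = 0.96) was at 0.775 ± 0.596, 9.95 ± 2.62 and 8.995 ± 3.09 FPKM, so that its room and high levels did not differ beyond their spread. The unannotated evm.TU.Contig965.9 (r = 0.95) and the match to solute carrier family 35 member B1 (evm.TU.Contig1212.10, r = 0.95) completed the list. The last, a transporter of the endoplasmic reticulum membrane, was at 0.603 ± 0.0175, 1.13 ± 0.0579 and 1.29 ± 0.0892 FPKM in that order. Its mean of 1.01 FPKM lay just over the limit of 1 FPKM. The lists depend on single libraries: leaving 1 out kept 1 to 3 of the 5 for the C/EBP gamma match, 1 to 5 for evm.TU.Contig79.116 and 1 to 4 for evm.TU.Contig782.15.

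**Figure D4:**
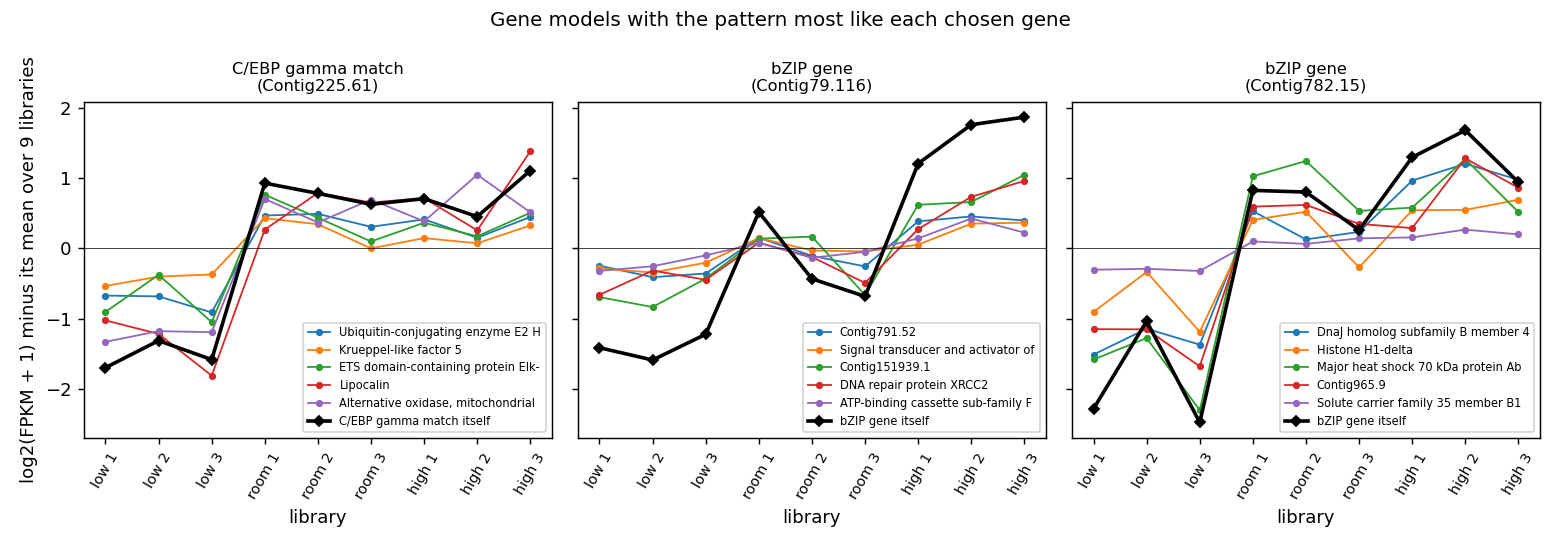
The 5 gene models with the highest Pearson's r to each of the 3 genes, as log2(FPKM + 1) minus the gene's mean over the 9 libraries; the black line is the gene itself, and lines link points of a gene only to guide the eye, as libraries of a group have no order. The low libraries lie below the gene's mean in all 3 panels, with r from 0.94 to 0.99.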

How the data were processed

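The deposited table gives FPKM per gene model, per the file headers and title. HISAT2 2.0.4 and HTSeq 0.9.1 are named in the submitters' processing notes. The sources used here name no genome build, settings or strand use. Multiplying FPKM by model length gave whole reads in each library once divided by that library's step, within 3.66e-08 read, so reads could be recovered. The deposited divisor was a median-of-ratios size factor times a constant, so the FPKM already carry a scaling between libraries. All 9 libraries, 3 per group, entered 1 limma 3.58.1 fit (R 4.3.3) on log2(FPKM + 1), with eBayes and trend, for 8624 gene models with a mean of at least 1 FPKM. A gene counted as called where its p, adjusted by Benjamini-Hochberg over all of these, was under 0.05. Code was checked on simulated data. Protein names are best matches in the table, so they state similarity only. The bZIP list took the words bZIP and leucine zipper and the names of known factors, left out 1 interacting protein that holds no such domain, and all 35 models also carry a bZIP family label in the table. Genes were named by a rule: the 3 genes, the 5 most like each, other bZIP genes that were called, among the 3 most abundant or the 2 lowest in p per contrast, the called and 2 lowest p genes of each list, and nearest neighbours. The genes and lists were chosen with earlier results of these data known. RefSeq names for this species could not be joined to these gene models. Figures were drawn with matplotlib 3.10.9.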

Additional observations from a re-analysis of the deposited data

How the results depend on the processing

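The 9 log2 differences of the 3 bZIP genes moved by less than 1 SD of their libraries in all 21 alternatives, apart from evm.TU.Contig79.116, whose difference of low from room was -1.69 with voom on recovered reads and whose difference of high from low was 3.62 at a pseudocount of 0.1 and 3.71 with voom. Several of these alternatives leave a difference of group means as it is, so they say nothing of its stability. They are no filter, a minimum of 5 FPKM, robust eBayes, the replicate block and the fit of only the groups compared. Leaving out a library of the group not compared does the same. For the other bZIP genes and the regulators 0 calls were made in any alternative. Over all gene models, the 13 calls for low minus room became 0 with no filter on low values, 8 at a minimum of 5 FPKM, 7 at equal FPKM sums, 8 with quantile normalization, 8 with voom, 31 with array weights and 2 with the pair of libraries that stood apart (replicate 3 of both high and low temperature) left out, a setting added after seeing the data. The 14 for high minus low became 4 with no filter, 89 with array weights and 1 without that pair of libraries. Leaving out 1 library gave 0 to 12 calls for low minus room (0 when low temperature replicate 1 or 3 was dropped, 5 for replicate 2, 6 and 7 for room temperature replicates 1 and 3, and 8 for high temperature replicate 3), 0 to 2 for high minus room (2 without room temperature replicate 1 or high temperature replicate 2 and 1 without room temperature replicate 3) and 6 to 19 for high minus low (9, 6 and 6 without low temperature replicates 1, 2 and 3). Of the amino acid response genes 2 were called in at least 1 contrast, 4 with array weights, 0 with no filter or without that pair, 1 at a minimum of 5 FPKM, at equal sums, with only the groups compared, with the replicate block and with voom, and 0 to 2 leaving out 1 library. Of the endoplasmic reticulum genes 0 were called, 1 at a minimum of 5 FPKM, with array weights and with voom, and 0 to 1 leaving out 1 library. The order low, room, high held for 19 gene models, 34 with no filter, 8 at a minimum of 5 FPKM and 10 at equal FPKM sums, counts added after seeing the data. The within-group r of evm.TU.Contig79.116 and evm.TU.Contig782.15 turned from -0.01 to 0.47 at equal sums, and its rho was 0.0511. The Arpin match (evm.TU.Contig782.16) ranged from -0.3118 to 0.001911 for high minus room leaving out 1 library, above 0 only without room temperature replicate 3. The cause of these moves was not tested. Same-numbered libraries were not paired by the labels, and their deviations correlated at -0.103 to 0.242, over 0.1 in 3 of 9 pairs. Libraries of different groups and different numbers correlated at -0.224 to 0.120, somewhat lower, and whether same-numbered libraries share something was not tested. With the replicate block 10 genes were called for low minus room, 0 for high minus room and 18 for high minus low. Read number limits evm.TU.Contig782.15 and the C/EBP gamma match at low temperature.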
